A study of Homo sapiens with 12 samples.

Results

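The 9 genes examined act in proximal T-cell receptor signalling and were followed in 2 human T-ALL cell lines. They were taken as the entries of the deposited gene tables whose Ensembl identifiers, without the version, mapped to *LCK*, *FYN*, *ZAP70*, *LAT*, *LCP2*, *PTPRC*, *PTPN22*, *PLCG1* and *CSK*. All 9 were found among the 58288 genes listed. The study depleted SHQ1, an assembly factor of H/ACA ribonucleoproteins, to ask how its loss alters RNA splicing in T-ALL. The 2 lines, HPB-ALL and KOPTK1, are established T-ALL lines. Control cells received a lentiviral shRNA against GFP in the pLKO.1 vector, and knockdown cells received one against *SHQ1*. The sample labels give puromycin at 2 μg/mL for 48 h. There were 4 groups of 3 libraries: HPB-ALL with control shRNA, HPB-ALL with SHQ1 shRNA, KOPTK1 with control shRNA and KOPTK1 with SHQ1 shRNA. A single culture lineage stands for each line, and p-values measure the spread between these libraries only.

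When the T-cell receptor is engaged, the Src family kinases LCK and FYN phosphorylate the CD3 and zeta chains, and ZAP70 binds the phosphorylated chains and is itself activated. ZAP70 then phosphorylates the adaptors LAT and SLP-76 (encoded by *LCP2*), which gather phospholipase C gamma 1 (*PLCG1*) at the membrane to release calcium and activate protein kinase C and RAS. CSK, CD45 (*PTPRC*) and PTPN22 set how much of the Src family kinases is held inactive. These proteins also act in thymocytes, the cells from which T-ALL arises.

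The 12 libraries were headed by numbers alone, 1 to 6 for KOPTK1 and 7 to 12 for HPB-ALL. The sample labels tie each table to a line, and no label ties a number to control or SHQ1 shRNA. No comparison of SHQ1 shRNA with control shRNA was therefore made, and each line is described over its 6 libraries, which mix both shRNAs. The total count per library was 22884785 to 36098045 in KOPTK1 and 36792076 to 42842791 in HPB-ALL. *SHQ1* itself, the target of the knockdown, had 45.9, 44.5, 46.6, 41.8, 41.7 and 39.4 RPKM (reads per kilobase of exon, scaled to the library total) in libraries 1 to 6, and 70.9, 71.9, 70.9, 47.2, 45.9 and 48.6 RPKM in libraries 7 to 12. The lines overlapped for this gene, and libraries 7, 8 and 9 were above all others.

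The KOPTK1 libraries did not all lie at the same distance from HPB-ALL. Across the 24246 genes tested, the log2 levels of KOPTK1 libraries 4, 5 and 6 correlated with those of HPB-ALL libraries at Pearson's r of 0.810 to 0.836, and those of libraries 1, 2 and 3 at 0.902 to 0.926. Within HPB-ALL the lowest r was 0.977, and within KOPTK1 it was 0.936. Genes are not independent replicates, so these values only describe the libraries. Libraries 4, 5 and 6 also had the 3 lowest total counts. The reason for this difference was not tested. For *LCK*, *ZAP70*, *CSK*, *PTPN22*, *LAT*, *LCP2* and *PLCG1*, libraries 1, 2 and 3 lay between libraries 4, 5 and 6 and HPB-ALL. For *FYN* and *PTPRC* they did not do so in full. A KOPTK1 median or difference over all 6 libraries thus mixes 2 unlike sets. The differences of the 9 genes are given below over all libraries and without either set of 3. So are those of the other named genes that moved by over 1.5 times.

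The 9 genes spanned a wide range of levels, and all were above 10 RPKM in each of the 12 libraries. In HPB-ALL the order by median was *LCK*, *ZAP70*, *PTPRC*, *CSK*, *PLCG1*, *LAT*, *LCP2*, *FYN* and *PTPN22*, and no 2 neighbours in this order overlapped. In KOPTK1 it was *LCK*, *PTPRC*, *ZAP70*, *LAT*, *PLCG1*, *CSK*, *LCP2*, *FYN* and *PTPN22*. There the libraries of *PTPRC* and *ZAP70*, *ZAP70* and *LAT*, *LAT* and *PLCG1*, and *CSK* and *LCP2* overlapped. The lowest library of *FYN* and the highest of *PTPN22* were both at 26.1 RPKM, so overlap cannot be told from these rounded values. Within every KOPTK1 library *FYN* was above *PTPN22*. *LCK* stood at rank 79 in HPB-ALL and 111 in KOPTK1 among the 12103 protein-coding genes tested, and *PTPN22*, the lowest of the 9, at rank 4286 and 2959.

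All 9 genes differed between the lines at an adjusted p-value under 0.05 in edgeR's quasi-likelihood test, against 65.4% of all tested genes. Such a difference was therefore common in these libraries, though its share moved with the filter on low values. It was 40.3% with no filter, where 8 of the 9 passed, and 77.4% at a mean of at least 10 RPKM in either line, where all 9 passed. *LCK*, *ZAP70* and *CSK* were higher in HPB-ALL, 3 of 9 against 31.3% of all tested genes, and the other 6 were higher in KOPTK1, against 34.1%. With a change of at least 1.5-fold asked for as well, 4 of 9 passed, *ZAP70*, *LAT*, *LCP2* and *PLCG1*, against 26.4%. The libraries of the lines did not overlap for 8 of 9 genes, against 45.4%. The shares of 26.4% and 45.4% include genes of low level, and neither was computed for genes at levels like those of the 9. The median log2 difference (HPB-ALL minus KOPTK1) was -0.17 over the 9 genes and -0.03 over all tested genes, and the median size of the difference, sign dropped, was 0.45 and 0.33.

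Of the kinases, *LCK* (ENSG00000182866, chr1:32251239-32286165 in GRCh38, + strand) encodes the Src family kinase bound to the CD4 and CD8 coreceptors. It had 213 to 233 RPKM in HPB-ALL (median 223) and 173 to 201 RPKM in KOPTK1 (median 187). Each HPB-ALL library was above each KOPTK1 library, and libraries 4, 5 and 6 were the lowest. The log2 difference was 0.26 (SE 0.04, adjusted p = 9.9e-05), a 1.2-fold higher level in HPB-ALL. It was 0.37 without KOPTK1 libraries 1, 2 and 3 and 0.19 without libraries 4, 5 and 6, with adjusted p = 4.2e-09 and 6.8e-05.

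*FYN* (ENSG00000010810, chr6:111660332-111873452, - strand), the other Src family kinase of T cells, was much lower than *LCK* per kilobase. Its level was 23.3 to 25.3 RPKM in HPB-ALL (median 24.2) and 26.1 to 28.4 RPKM in KOPTK1 (median 27.3). The lines were apart by less than 1 RPKM at their nearest libraries. The log2 difference of -0.17 (SE 0.03, adjusted p = 2.3e-04) was opposite in sign to that of *LCK*, and it was -0.17 and -0.14 without either set of KOPTK1 libraries. Within a library the ratio of *LCK* to *FYN* was 8.84 to 9.72 in HPB-ALL and 6.15 to 7.5 in KOPTK1, and these ranges did not overlap.

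*ZAP70* (ENSG00000115085, chr2:97713560-97739860, + strand), the kinase recruited to the phosphorylated receptor, showed the largest spread of the 9 within a line. It had 138 to 162 RPKM in HPB-ALL (median 149) and 64.3 to 107 RPKM in KOPTK1 (median 82.3). In KOPTK1, libraries 4, 5 and 6 were at 64.3, 65.7 and 65.1 RPKM and libraries 1, 2 and 3 at 107, 101 and 98.9 RPKM, all below HPB-ALL. The log2 difference was 0.84 (SE 0.13, adjusted p = 7.8e-05), or 1.80-fold. This value depended on which KOPTK1 libraries entered: it was 1.24 (SE 0.05, adjusted p = 5.9e-14) without libraries 1, 2 and 3, and 0.56 (SE 0.05, adjusted p = 3.8e-08) without libraries 4, 5 and 6. The highest library was 1.67 times the lowest within KOPTK1, against a median of 1.18 over the 6491 protein-coding genes with a mean of at least 10 RPKM there. Within HPB-ALL it was 1.18 times the lowest, against a median of 1.10 over 6546 genes.

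*LCK* has a pair of promoters in the RefSeq annotation, a distal and a proximal one, and the counts, summed over all exons, do not tell transcripts from the 2 apart. Their sequences are shown with that of the first *ZAP70* start, because *LCK* and *ZAP70*, the kinases that act in turn on the receptor, were both higher in HPB-ALL. Each spans 300 bases around a start site on the + strand (RefSeq, GRCh38.p14). Capitals mark matches, on either strand, to CAGGAA or CCGGAA (letters found in ETS factor sites) and to TGTGGT or TGCGGT (letters found in RUNX factor sites).
LCK distal, chr1:32251015-32251314: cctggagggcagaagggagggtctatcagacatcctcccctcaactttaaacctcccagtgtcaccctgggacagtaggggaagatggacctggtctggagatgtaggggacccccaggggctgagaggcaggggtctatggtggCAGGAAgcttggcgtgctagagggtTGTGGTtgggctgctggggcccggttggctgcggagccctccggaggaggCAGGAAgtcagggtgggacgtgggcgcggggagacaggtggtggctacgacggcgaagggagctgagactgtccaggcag
LCK proximal, chr1:32273871-32274170: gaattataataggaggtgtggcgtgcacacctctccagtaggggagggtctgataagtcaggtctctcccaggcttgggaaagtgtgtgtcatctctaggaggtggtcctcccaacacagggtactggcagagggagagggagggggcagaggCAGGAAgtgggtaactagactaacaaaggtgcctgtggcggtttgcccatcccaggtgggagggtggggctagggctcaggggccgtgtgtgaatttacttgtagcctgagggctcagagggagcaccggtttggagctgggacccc
ZAP70, chr2:97713326-97713625: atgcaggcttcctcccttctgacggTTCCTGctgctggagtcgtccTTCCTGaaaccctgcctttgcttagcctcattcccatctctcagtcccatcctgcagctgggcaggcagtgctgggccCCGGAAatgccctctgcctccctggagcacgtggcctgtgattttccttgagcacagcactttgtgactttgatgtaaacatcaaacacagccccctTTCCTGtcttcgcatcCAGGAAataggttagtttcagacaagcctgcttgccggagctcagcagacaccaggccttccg

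The RefSeq table held 16 promoters for the 9 genes, with at least 1 for each. CAGGAA was found in 6 of these 16, from *LCK*, *FYN*, *ZAP70*, *PTPRC* and *LAT*, and in 28.4% of all 35116 promoters of the same length. The *ZAP70* promoter above held 4 matches to it and 1 to CCGGAA, which was in 17.2% of all promoters and in no other promoter of the 9 genes. The other 2 *ZAP70* windows held 0 matches to either. TGTGGT was found in 4 of 16 (*LCK*, *FYN*, *PTPN22* and *LAT*) and in 13.1% of all, and TGCGGT in 1 of 16 (*FYN*) and in 7.29%. The E-box letters CAGCTG were in 4 of 16 and 17.9% of all, and CATCTG in 1 of 16 and 14.7%. The TATA letters TATAAA were in 0 of 16 and in 11.5% of all. These matches describe letters in the windows, and no binding was measured.

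Of the regulators of the Src family kinases, *CSK* (ENSG00000103653, chr15:74782057-74803198, + strand) encodes the kinase that phosphorylates their inhibitory tail. It had 52.7 to 58.8 RPKM in HPB-ALL (median 55.8) and 40.3 to 48.9 RPKM in KOPTK1 (median 46.1). All HPB-ALL libraries were above all KOPTK1 libraries, of which library 6 was the lowest. Its log2 difference was 0.29 (SE 0.05, adjusted p = 1.7e-04), and 0.42 and 0.21 without KOPTK1 libraries 1, 2 and 3 or 4, 5 and 6. *LCK* and *CSK* differed in the same direction, and their ratio within a library overlapped between the lines, at 3.96 to 4.12 in HPB-ALL and 4.0 to 4.29 in KOPTK1.

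*PTPRC* (ENSG00000081237, chr1:198639040-198757283, + strand) encodes CD45, the phosphatase that removes the inhibitory phosphate. It had 97.9 to 103 RPKM in HPB-ALL (median 102) and 102 to 116 RPKM in KOPTK1 (median 109). It was the only one of the 9 for which the lines overlapped, with KOPTK1 library 1 inside the HPB-ALL range. The log2 difference was -0.11 (SE 0.03, adjusted p = 0.011), a 1.08-fold higher level in KOPTK1, and it did not hold under several settings. It was -0.13 without libraries 1, 2 and 3 and -0.04 without libraries 4, 5 and 6. The adjusted p-value was 0.073 without library 6, 0.20 without libraries 4, 5 and 6, 0.063 after centring on the median difference and 0.44 with no filter on low values, within a range of 7.0e-05 to 0.44 over all alternatives.

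*PTPN22* (ENSG00000134242, chr1:113813811-113871759, - strand) encodes a phosphatase that acts with CSK on the active kinases. Its level was 15.9 to 17.7 RPKM in HPB-ALL (median 16.9) and 20.5 to 26.1 RPKM in KOPTK1 (median 22.7). No library of a line entered the range of the other, and libraries 4, 5 and 6 were the highest. On the log2 scale the difference was -0.45 (SE 0.06, adjusted p = 2.0e-05), and -0.54 and -0.31 without libraries 1, 2 and 3 or 4, 5 and 6. The ratio of *PTPN22* to *CSK* within a library was 0.289 to 0.322 in HPB-ALL and 0.426 to 0.617 in KOPTK1, and that of *PTPRC* to *CSK* was 1.72 to 1.95 and 2.11 to 2.89. These ratios, like that of *LCK* to *FYN*, were picked once the levels had been seen and were not tested.

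Of the adaptors, *LAT* (ENSG00000213658, chr16:28984826-28990783, + strand) encodes the membrane scaffold that ZAP70 phosphorylates. It had 32.6 to 35.8 RPKM in HPB-ALL (median 34.4) and 56.7 to 79.0 RPKM in KOPTK1 (median 66.3). KOPTK1 libraries 4, 5 and 6 were at 79.0, 75.6 and 73.6 RPKM, libraries 1, 2 and 3 at 59.0, 56.7 and 58.8 RPKM, and every one was above HPB-ALL. The log2 difference was -0.97 (SE 0.08, adjusted p = 3.4e-07), a 1.96-fold higher level in KOPTK1. Over all libraries it was the largest in size among the 9 with the filter on low values. With no filter that of *ZAP70* was larger, at 0.92 against -0.9 for *LAT*. The difference of *LAT* was -1.12 without libraries 1, 2 and 3 and -0.76 without libraries 4, 5 and 6, with adjusted p = 1.1e-14 and 5.4e-11.

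The level of *LAT* is uncertain, because its exons overlap those of 2 other listed genes, and whether reads were split between them was not tested. Its counts were not whole in 12 of 12 libraries, against 0 to 7 libraries for the other 8 genes. ENSG00000261067, on the same strand, had 3026 to 4674 counts per library, which was 1.30 to 1.33 times the count of *LAT* in HPB-ALL and 1.14 to 1.19 times in KOPTK1. ENSG00000261552, on the opposite strand, had 272 to 460 counts. Their log2 differences were -0.79 (adjusted p = 6.6e-07) and -0.90 (adjusted p = 1.4e-05), so that the overlapping genes were higher in KOPTK1 as well, and reads from the overlap cannot be told apart here. *PTPN22*, *LCP2* and *PLCG1* shared 105, 78 and 145 bases of exon with other listed genes, and strand was not stated for the counting. Over all 12 libraries, with the filter on low values, *LAT* had the largest difference of the 9 in size. That of *ZAP70* was larger with no filter (0.92 against -0.9 for *LAT*) and without libraries 1, 2 and 3. The promoter of *LAT* at its second RefSeq start is shown for its rank with the filter. Capitals are as above (RefSeq, GRCh38.p14, + strand). This window was printed because it holds matches, and the window at the first *LAT* start held 0 to any of the letters searched.
LAT, chr16:28984802-28985101: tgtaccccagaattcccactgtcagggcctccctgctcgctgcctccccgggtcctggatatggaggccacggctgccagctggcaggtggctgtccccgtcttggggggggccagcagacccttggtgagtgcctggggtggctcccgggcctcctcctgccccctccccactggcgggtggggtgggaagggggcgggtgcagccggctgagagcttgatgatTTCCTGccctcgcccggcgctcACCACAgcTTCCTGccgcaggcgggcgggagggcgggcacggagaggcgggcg

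*LCP2* (ENSG00000043462, chr5:170246237-170298227, - strand) encodes SLP-76, the cytosolic adaptor that joins LAT through GADS. It had 26.5 to 28.9 RPKM in HPB-ALL (median 27.4) and 37.1 to 48.8 RPKM in KOPTK1 (median 42.8). The lines were apart, with libraries 4, 5 and 6 the highest. The log2 difference was -0.64 (SE 0.07, adjusted p = 3.1e-06), and -0.76 and -0.47 without libraries 1, 2 and 3 or 4, 5 and 6. Both adaptors were thus higher in KOPTK1, and *ZAP70*, the kinase that acts on them, was higher in HPB-ALL. The ratio of *ZAP70* to *LAT* within a library was 4.22 to 4.66 in HPB-ALL and 0.814 to 1.82 in KOPTK1. In KOPTK1 it was 1.82, 1.77 and 1.68 in libraries 1, 2 and 3 and 0.814, 0.869 and 0.884 in libraries 4, 5 and 6. It rests on the uncertain level of *LAT*. Like the other ratios of genes given here, it was not planned and was not tested.

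*PLCG1* (ENSG00000124181, chr20:41136960-41177626, + strand), the effector enzyme, was the most even of the 9 within HPB-ALL. Its level there was 36.6 to 37.7 RPKM (median 37.2), and it was 52.1 to 66.1 RPKM in KOPTK1 (median 59.1). The KOPTK1 libraries were all higher, 4, 5 and 6 the most. The lines differed by a log2 value of -0.67 (SE 0.06, adjusted p = 5.8e-07), or 1.59-fold, and -0.78 and -0.51 without libraries 1, 2 and 3 or 4, 5 and 6.

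**Figure D1:**
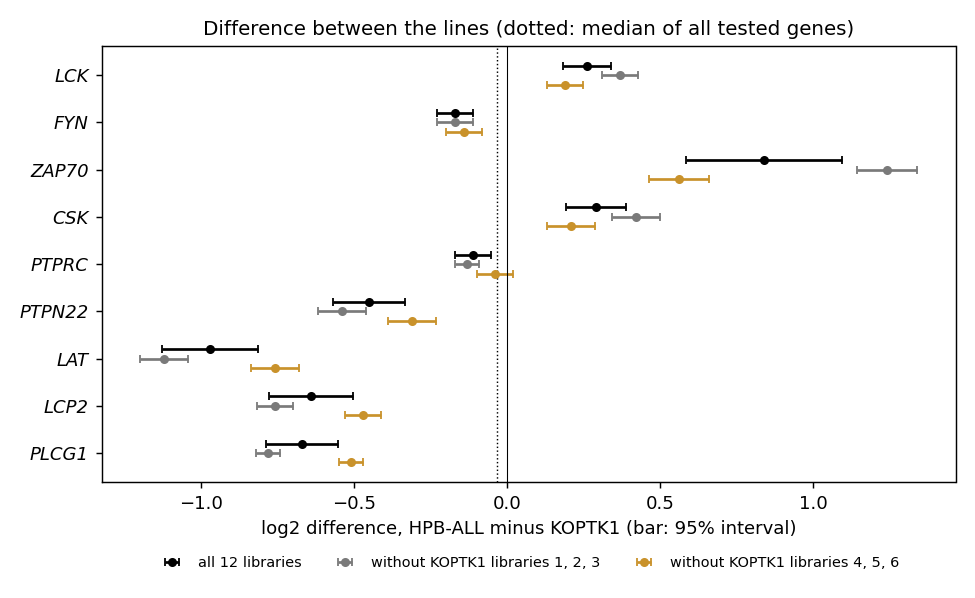
The log2 difference (HPB-ALL minus KOPTK1) of each gene with its 95% interval, over all 12 libraries and without 3 KOPTK1 libraries at a time, and a dotted line at the median of all tested genes (-0.03). *ZAP70* moved most between these fits, from 0.56 to 1.24, and the interval of *PTPRC* reached 0 without libraries 4, 5 and 6.

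Without libraries 1, 2 and 3, all 9 genes passed the threshold, against 70.1% of the genes tested in that fit, and without libraries 4, 5 and 6 all but *PTPRC* passed, against 53.5%. No sign turned in either fit. Both sets of libraries were picked once their values had been seen.

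**Figure D2:**
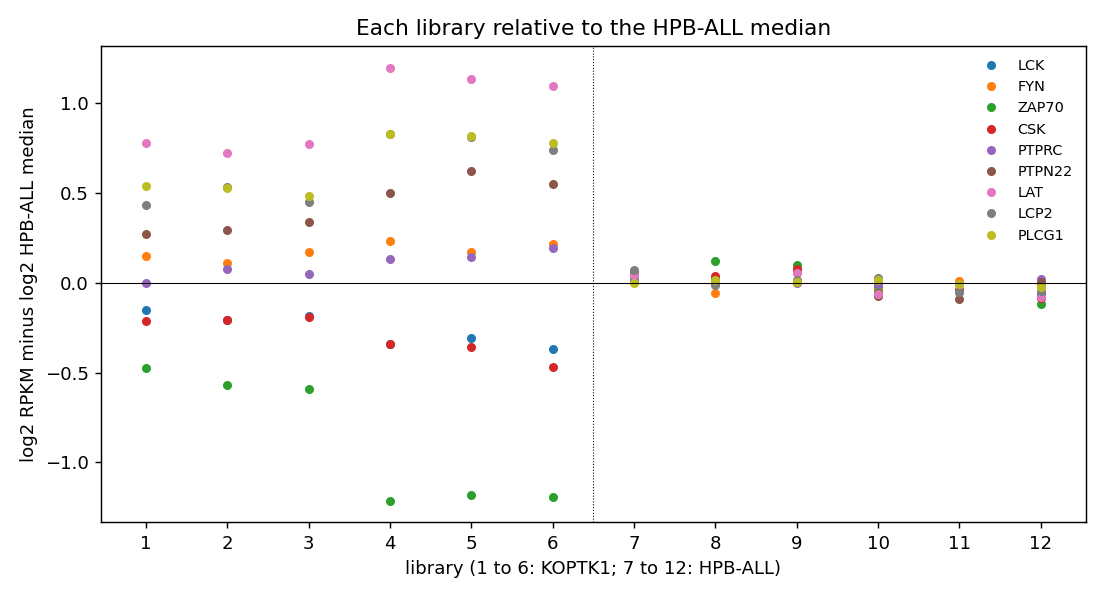
The log2 RPKM of each gene in each library minus the log2 of its HPB-ALL median, with 1 colour per gene and KOPTK1 libraries to the left of the dotted line. HPB-ALL libraries lay close to 0, whereas *LAT* was above and *ZAP70* below 0 in every KOPTK1 library.

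Other genes of the pathway were counted from lists by role. Of 67 such genes, all were listed and 64 passed the filter on low values (a mean of at least 1 RPKM in either line). *LYN* and *CD4* were among those that did not. Of the 64, 28 were higher in HPB-ALL, 28 were higher in KOPTK1 and 8 did not pass the test, against 31.3% of all tested genes higher in HPB-ALL and 34.1% higher in KOPTK1. Their median log2 difference was 0.00 and the median size 0.28, against -0.03 and 0.33 over all tested genes. For 5 of the 64 (*TXK*, *FGR*, *CD8A*, *PDCD1* and *CTLA4*) the mean in HPB-ALL was under 1 RPKM, so that they passed the filter through KOPTK1 alone and their part in these counts and medians is set by the filter. The counts by role below are small, and they are to be read beside the same 31.3% and 34.1%.

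Among other T-cell kinases, 1 of 4 was higher in HPB-ALL and 2 were higher in KOPTK1. *SYK*, the homologue of ZAP70, had 26.0 to 27.3 RPKM in HPB-ALL and 14.4, 13.9, 14.6, 2.89, 2.63 and 2.5 RPKM in KOPTK1 libraries 1 to 6. Libraries 4, 5 and 6 were far below the rest. Its log2 difference was 1.63 (SE 0.42, adjusted p = 0.0039). The ratio of *ZAP70* to *SYK* was 5.29 to 6.17 in HPB-ALL and 6.76 to 26.0 in KOPTK1, so that both lines held more *ZAP70* than *SYK* per kilobase. *TEC*, a kinase of the TEC family, had medians of 1.05 and 2.05 RPKM (-0.88, SE 0.13, adjusted p = 4.9e-05). *TXK*, of the same family, had 0.492 to 0.694 RPKM in HPB-ALL and 0.673 to 1.5 RPKM in KOPTK1. It is among the 2 above but passed the filter through KOPTK1 alone, so its test is not used, and it did not pass the filter when library 4, 5 or 6 alone was left out.

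Of the other Src family kinases, 4 of 6 passed the filter. *BLK* had a median of 5.48 RPKM in HPB-ALL and 1.73 in KOPTK1 (log2 difference 1.57, SE 0.35, adjusted p = 0.0013). *SRC* was higher in KOPTK1 (-0.55, SE 0.04, adjusted p = 1.9e-07) and *YES1* in HPB-ALL (0.21, SE 0.04, adjusted p = 3.9e-04), and *FGR*, which passed the filter through KOPTK1 alone, had medians of 0.942 and 1.25 RPKM. The highest library of any of these 4 was at 9.81 RPKM, below the lowest of *FYN*.

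Of 16 other adaptors, 9 were higher in HPB-ALL and 7 in KOPTK1, against 31.3% and 34.1% of all tested genes. *SKAP1*, which links to integrin adhesion, and *SIT1*, a transmembrane adaptor, were higher in HPB-ALL, with log2 differences of 1.63 (SE 0.39, adjusted p = 0.0021) and 1.08 (SE 0.18, adjusted p = 1.3e-04). *PAG1*, the membrane adaptor that recruits CSK, was higher in KOPTK1, at 14.7 to 20.6 RPKM against 7.29 to 8.08 RPKM (-1.18, SE 0.09, adjusted p = 1.6e-07). *THEMIS*, an adaptor of thymocyte selection, was also higher in KOPTK1 (-0.73, SE 0.07, adjusted p = 1.2e-06).

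Of 14 negative regulators, 9 were higher in HPB-ALL and 4 in KOPTK1, against 31.3% and 34.1%. The largest differences were those of the adaptor-like proteins *SLA* (0.86, SE 0.15, adjusted p = 2.0e-04) and *SLA2* (0.78, SE 0.11, adjusted p = 3.0e-05), which lower receptor levels. The phosphatase *PTPN6* (SHP-1) had a median of 43.3 RPKM in HPB-ALL and 30.2 in KOPTK1 (0.50, SE 0.07, adjusted p = 3.4e-05). *DOK2* differed in the same direction (0.47, SE 0.09, adjusted p = 3.0e-04).

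Of 9 coreceptors and costimulators, 8 were tested, 5 were higher in KOPTK1, of which 3 passed the filter through KOPTK1 alone, and 1 was higher in HPB-ALL. *CD2*, an adhesion receptor, had 12.7 to 14.9 RPKM in HPB-ALL and 37.3 to 59.7 RPKM in KOPTK1 (-1.82, SE 0.13, adjusted p = 8.4e-08). *CD8A*, whose product binds LCK, had 0.796 to 1.03 and 4.09 to 6.81 RPKM. *PDCD1*, the inhibitory receptor PD-1, had 0.281 to 0.609 and 1.99 to 3.66 RPKM. *CTLA4* rested on 2 to 13 counts per HPB-ALL library and 57 to 98.5 per KOPTK1 library. The levels of *CD8A*, *PDCD1* and *CTLA4*, the 3 that passed the filter in this way, are descriptions, and their tests are not used.

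The list labelled downstream of PLCG1 held 18 genes, among them *SOS1* and *SOS2*, which act beside PLCG1 and not downstream of it. Of the 18, 6 were higher in HPB-ALL and 9 in KOPTK1, against 31.3% and 34.1%. *SOS1* and *SOS2* were among the 9. *PPP3CA*, a catalytic subunit of calcineurin, was higher in HPB-ALL (1.34, SE 0.28, adjusted p = 8.4e-04), as was the calcium channel gene *ITPR2* (0.40, SE 0.08, adjusted p = 5.9e-04). *PRKCQ*, which encodes protein kinase C theta, and *SOS1*, a RAS exchange factor, were higher in KOPTK1, with log2 differences of -0.68 (SE 0.08, adjusted p = 9.1e-06) and -0.84 (SE 0.07, adjusted p = 3.3e-07).

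Several of these differences rested on which KOPTK1 libraries entered. Without libraries 1, 2 and 3 the log2 difference rose in size to 3.35 for *SYK*, 3.26 for *SKAP1*, 3.01 for *BLK*, 2.36 for *PPP3CA*, 1.67 for *SIT1*, 1.31 for *SLA* and 0.66 for *ITPR2*. Without libraries 4, 5 and 6 it was 0.90, 0.94, 0.93, 0.79, 0.71, 0.55 and 0.22 in the same order. The other named genes of the pathway moved by less than 1.5 times in size where tested. No sign turned among the named genes, and *CTLA4* and *TXK* did not pass the filter without libraries 4, 5 and 6. Without libraries 1, 2 and 3, the level of *BLK* in KOPTK1 rested on 0.782, 0.621 and 0.724 RPKM. *BLK* passed the filter in that fit through HPB-ALL alone, so its value of 3.01 is a description and its test there is not used. Of the pathway genes, 57 of 64 and 50 of 62 tested passed in these fits, against 56 of 64 over all libraries, while the share of all tested genes was 70.1% and 53.5%, against 65.4%.

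Markers of cell types were read beside these differences. Of 10 T-lineage markers, 9 were matched, and all 9 were above 10 RPKM in every library, with a summed level of 977 to 1006 RPKM in HPB-ALL and 1693 to 2205 RPKM in KOPTK1. *TRBC2* carried most of this gap, at 188 to 221 RPKM in HPB-ALL and 857 to 1315 RPKM in KOPTK1, and the other 8 summed to 770 to 813 RPKM and 830 to 902 RPKM. The most abundant marker by median was *CD3D* in HPB-ALL and *TRBC2* in KOPTK1. Of the 9, 2 were higher in HPB-ALL, 4 were higher in KOPTK1 and 3 did not pass the test, with a median log2 difference of -0.04. The 6 B-lineage markers summed to 42.1 to 48.3 RPKM in HPB-ALL and 7.58 to 26.8 in KOPTK1, nearly all from *CD79A*, while *MS4A1*, *CD79B* and *PAX5* stayed under 1 RPKM in all libraries. Summed myeloid markers reached at most 3.75 RPKM, erythroid markers 2.57 and stromal markers 1.70. The 4 NK markers summed to 13 to 19 RPKM, mostly *NKG7*, with the other 3 under 1 RPKM. The part of these markers in the differences of the 9 genes was not tested, and in bulk RNA fewer cells of a kind cannot be told apart from less RNA per cell.

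The genes most like *LCK* over the 12 libraries, by Pearson's r of log2 levels among 12102 other tested protein-coding genes, included *SNRNP200* (0.995) and *DTX1* (0.993). *SNRNP200* had a median of 92.7 RPKM in HPB-ALL and 74.8 in KOPTK1. Those most like *ZAP70* were *LSS*, *CAD* and *XPNPEP3*, each at 0.998. *LSS* had medians of 21.7 and 11.8 RPKM, and like *ZAP70* it was lowest in libraries 4, 5 and 6. The points share their lines and libraries, and an r over 0.95 was common: 1508 genes (12.5%) reached it with *LCK* and 2605 (21.5%) with *ZAP70*.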

How the data were processed

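RNA depleted of rRNA was sequenced from 12 libraries. The submitters' processing notes name Trimmomatic 0.36, STAR 2.5.4b, Picard 2.18.7, featureCounts 1.6.2, edgeR 3.22.3 and hg38. The authors deposited 1 table per line with expected counts per gene and library (15.1% to 17.2% of values per library were not whole), and these were rounded to whole numbers for the tests. The authors' average log2 CPM per line was deposited as well and served as an alternative level. Columns with the authors' log2 fold change, F statistic, p-value and FDR were not used. Of 19008 protein-coding genes compared, 19000 overlapped their RefSeq GRCh38.p14 position.

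RPKM were computed from the counts, TMM-scaled totals and the deposited exon length. The lines were compared with edgeR 4.0.16 (quasi-likelihood, Benjamini-Hochberg adjustment over the 24246 genes that averaged 1 RPKM or more in either line) in R 4.3.3. The SE was derived from the F statistic of this fit. Correlations used log2(RPKM + 0.1). Python 3.11.15 and pandas 2.3.3 made the tables. The fit was tested on simulated counts.

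Column headings carry no shRNA, so the 2 knockdown tests and their difference between the lines could not be made. The lines were tied to columns by the table that each sample's description names. Symbols were matched for 95.8% of identifiers, and *TRBC1* and *PECAM1* were not matched. The 9 genes and all lists were chosen with earlier results of these data known. Named genes were the 9, *SHQ1*, up to 4 genes per role with the largest log2 difference, and the 3 genes most like *LCK* and *ZAP70*; single markers were named after their values were seen. Some genes that this rule takes are not reported here.

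Alternatives were DESeq2 1.42.0, its size factors, no filter, an average of 10 RPKM or more, centring on the median difference and leaving out each library. Leaving out KOPTK1 libraries 1, 2 and 3 or 4, 5 and 6 and a minimum change of 1.5-fold were added once the data had been seen.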

Additional observations from a re-analysis of the deposited data

Results flagged for a closer look

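Among 68 sets of 6 libraries (the 9 genes, *SHQ1* and the named pathway genes in each line), 3 held a library far from the other 5, and chance gives about 1 in 20. None of the 3 sets belonged to the 9 genes. *THEMIS* was at 29.9 RPKM in HPB-ALL library 11 and at 32.3 to 33.2 RPKM in the others, a gap of 0.745 of the whole range. *SRC* was at 5.06 RPKM in HPB-ALL library 7 and at 5.38 to 5.50 RPKM in the others (0.720 of the range). *CTLA4* was at 0.149 RPKM in HPB-ALL library 11 and at 0.0229 to 0.0666 RPKM in the others (0.654 of the range). The causes were not tested.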

How the results depend on the processing

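Over all libraries, 15869 genes differed between HPB-ALL and KOPTK1 by edgeR. This was 65.4% of the 24246 genes tested. The count was 19484 with no filter on low values (40.3% of 48405), 7196 with a mean RPKM of at least 10 (77.4% of 9293) and 6403 with a minimum change of 1.5-fold, which left 4 of the 9 genes. Leaving out each library in turn gave 14915 to 16184 genes, and 8 or 9 of the 9. Of 171 single values of the 9 genes under the alternatives, 167 kept their side of the threshold and 4, all of *PTPRC*, lost it; no sign turned. Ranks among the 9 by the authors' average were those by the median in 18 of 18 cases, whereas by CPM, without length, 15 of 18 moved and *PTPRC* took the place of *LCK* as the highest. No paired analysis was possible because the columns carry no replicate number. The planned knockdown fits were not run for want of shRNA labels on the columns, and pseudocounts did not apply to counts. In KOPTK1, totals as low as 22884785 counts set the lowest depth, at which the 9 genes had at least 2227 counts.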

Other observations

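In KOPTK1, where no label assigns a library to an shRNA, the values of several genes fell into separate clusters. *ZAP70* was at 107, 101 and 98.9 RPKM in libraries 1, 2 and 3 and at 64.3, 65.7 and 65.1 RPKM in libraries 4, 5 and 6. *PLCG1* was at 54.2, 53.7 and 52.1 RPKM and at 66.1, 65.8 and 64.0 RPKM in the same libraries. *SYK* was at 14.4, 13.9 and 14.6 RPKM and at 2.89, 2.63 and 2.5 RPKM. In HPB-ALL, *SHQ1* was at 70.9, 71.9 and 70.9 RPKM in libraries 7, 8 and 9 and at 47.2, 45.9 and 48.6 RPKM in libraries 10, 11 and 12. *LCK*, *ZAP70*, *CSK* and *LAT* were also higher in each of libraries 7, 8 and 9 than in libraries 10, 11 and 12, by less. *ZAP70* was at 153.1, 162.1 and 159.9 RPKM and at 144.1, 145.1 and 137.5 RPKM. *FYN*, *PTPRC*, *PTPN22*, *LCP2* and *PLCG1* overlapped between these libraries.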
